A study of Mus musculus with 14 samples.

Results

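Expression of 44 genes of the cell division cycle was followed in 14 transplanted mouse hearts. The genes were set by name, 23 for DNA replication and its entry and 21 for mitosis, and each was read from the brightest of its probe sets by mean intensity over the 14 arrays. A probe set that named 1 gene was found for 41 of them, and 38 were bright enough to test, 19 for replication and 19 for mitosis. The whole array held 8251 genes with such a probe set, of which 7366 were tested. Ccnb1, Bub1b and Tyms are not analysed here, because they had no probe set that named 1 gene alone. Ccne2, Mcm6 and Hells were measured but lay mostly under the floor of 11 intensity units below which values were not ordered.

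The hearts were hybridised singly to MG-U74Av2 oligonucleotide arrays. Isografts were hearts moved within 1 strain, C57/BL6 to C57/BL6, taken at day 7 (n = 3) and day 70 (n = 2). Allografts were hearts moved across strains, Balb/c to C57/BL6. Rejecting allografts had no listed treatment and were taken at day 7 (n = 3), and tolerizing allografts had an anti CD80/86 mAb, an antibody against the costimulatory ligands of T cells, and were taken at day 7 (n = 3) and day 70 (n = 3). All groups share the recipient strain, and each contrast between allograft and isograft hearts is also one between donor strains. The labels give neither the ages nor the dosing, and whether replicates came from separate operations is not stated, so p-values measure only the spread between these arrays.

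A dividing cell copies its DNA in S phase and parts the copies in mitosis. Licensing factors such as Cdc6 load the ring of Mcm proteins onto origins before S phase, Cdc45 helps turn that ring into the moving helicase, and polymerases, the Pcna clamp and nick-sealing enzymes then copy the strands from nucleotides that ribonucleotide reductase and thymidine kinase supply. Entry into mitosis is driven by the kinase Cdk1 with B-type cyclins, while Aurora and Polo-like kinases, kinesin motors and the spindle checkpoint order the chromosomes. Heart muscle cells of adult mice seldom divide, whereas T cells divide rapidly after they meet antigen. In whole hearts, more dividing cells and more RNA per cell cannot be told apart, and neither can the cell type that carries the RNA.

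The promoters of both classes are shown because the 2 classes are known for different control elements. Replication genes are often bound by E2F factors, and mitosis genes by a complex that recognises the element called CHR, commonly with a CCAAT box bound by NF-Y nearby. RefSeq promoters of assembly GRCm38.p6, from 250 bases before to 30 bases after the start of transcription, were available for 37 of the 44 genes, 41 windows in all. The motifs searched on both strands were CCAAT for the CCAAT box, TTTGAA and TTCGAA for CHR, and TTTGGCGC, TTTCCCGC, TTTCGCGC and TTTGCCGC for E2F. The 3 genes per class with the smallest adjusted p in rejecting allografts against isografts, among those with 1 promoter window, are printed 5′ to 3′ on the strand of the gene, with every match in capitals. They are Rrm2 (chr12:24708004-24708283, plus strand), Rrm1 (chr7:102441445-102441724, plus strand) and Mcm5 (chr8:75109259-75109538, plus strand) for replication. For mitosis they are Aurka (chr2:172370541-172370820, minus strand), Kif22 (chr7:127042391-127042670, minus strand) and Cdc20 (chr4:118437314-118437593, minus strand).
Rrm2: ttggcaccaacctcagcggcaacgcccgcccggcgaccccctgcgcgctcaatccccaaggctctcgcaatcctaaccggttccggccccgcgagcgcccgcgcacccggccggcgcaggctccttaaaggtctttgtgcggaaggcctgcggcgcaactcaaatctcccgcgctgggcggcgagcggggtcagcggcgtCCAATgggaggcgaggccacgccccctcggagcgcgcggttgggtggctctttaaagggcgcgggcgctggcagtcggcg
Rrm1: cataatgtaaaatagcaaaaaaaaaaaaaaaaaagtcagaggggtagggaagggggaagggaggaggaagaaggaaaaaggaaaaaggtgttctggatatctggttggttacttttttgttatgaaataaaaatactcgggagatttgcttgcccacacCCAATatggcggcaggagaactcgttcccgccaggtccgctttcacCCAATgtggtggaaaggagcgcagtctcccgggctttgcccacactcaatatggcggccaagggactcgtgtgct
Mcm5: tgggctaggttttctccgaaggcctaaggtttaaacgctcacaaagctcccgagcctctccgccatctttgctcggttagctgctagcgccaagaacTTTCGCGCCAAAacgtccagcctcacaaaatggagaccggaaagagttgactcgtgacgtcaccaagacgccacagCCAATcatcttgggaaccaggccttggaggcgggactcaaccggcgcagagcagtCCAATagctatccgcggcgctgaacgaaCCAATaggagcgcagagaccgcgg
Aurka: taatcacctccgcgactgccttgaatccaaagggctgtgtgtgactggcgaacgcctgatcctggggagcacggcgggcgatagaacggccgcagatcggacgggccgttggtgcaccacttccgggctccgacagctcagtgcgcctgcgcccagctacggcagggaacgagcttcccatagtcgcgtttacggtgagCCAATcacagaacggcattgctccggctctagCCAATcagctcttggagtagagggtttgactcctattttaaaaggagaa
Kif22: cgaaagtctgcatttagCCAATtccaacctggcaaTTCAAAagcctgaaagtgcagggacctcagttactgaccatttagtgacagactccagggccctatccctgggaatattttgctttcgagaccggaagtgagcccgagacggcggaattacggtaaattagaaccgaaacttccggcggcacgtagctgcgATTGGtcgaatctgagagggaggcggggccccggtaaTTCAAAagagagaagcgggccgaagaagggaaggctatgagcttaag
Cdc20: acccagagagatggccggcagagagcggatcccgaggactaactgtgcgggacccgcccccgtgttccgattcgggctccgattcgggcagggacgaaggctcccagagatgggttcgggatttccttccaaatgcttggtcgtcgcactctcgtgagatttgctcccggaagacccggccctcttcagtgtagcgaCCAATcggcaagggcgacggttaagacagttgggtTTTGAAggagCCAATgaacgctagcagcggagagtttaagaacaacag

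Counting from the start of transcription, the CHR match of Cdc20 began at position -18 and its CCAAT matches at -53 and -8. Kif22 had CHR matches beginning at -215 and -17 on the opposite strand. Aurka had CCAAT matches at -51 and -19 and no CHR match by these letters. Mcm5 had a pair of E2F matches that overlap, at -153 and, on the opposite strand, at -149, so they form 1 stretch of capitals. Rrm1 and Rrm2 had CCAAT matches only. CHR was found in 62.5% of the 16 windows of mitosis genes, 16% of the 25 windows of replication genes and 18.4% of the 32851 windows of the whole table. E2F was found in 6.25%, 32.0% and 2.12% in the same order, and the CCAAT box in 87.5%, 52.0% and 36.1%. These are matches of letters, without a test, and they say nothing of binding in these hearts.

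**Figure D1:**
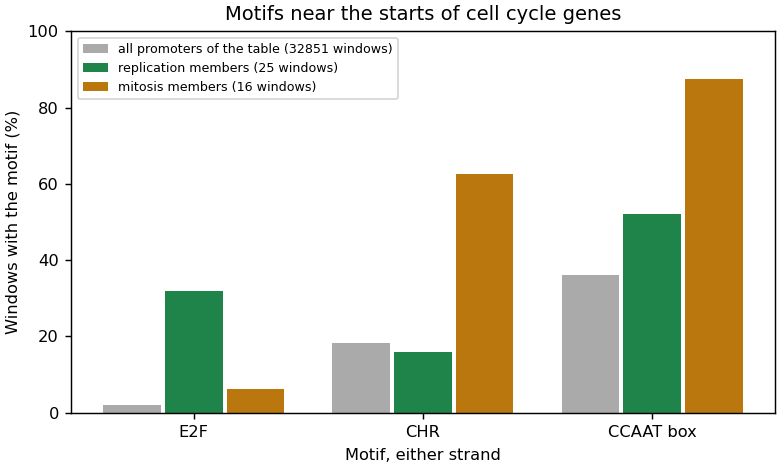
Share of promoter windows (y axis, percent) that hold a match to each motif (x axis) for all promoters of the table (grey), replication genes (green) and mitosis genes (brown). The mitosis bar is highest for CHR (62.5%) and the CCAAT box (87.5%), and the replication bar is highest for E2F (32.0%).

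In rejecting allografts at day 7, genes of both classes rose against isografts of the same day. Of 19 replication genes 11 were higher and 0 lower, with a median log2 difference of 1.21, and of 19 mitosis genes 15 were higher and 0 lower, with a median of 1.45. Of all 10395 probe sets tested, 8.54% were called higher and 9.18% lower, and their median difference was 0.04. Calls were made by limma at an adjusted p under 0.05, with the Benjamini-Hochberg adjustment over all probe sets. All 3 rejecting arrays lay above all 3 isografts for 16 of the replication genes and 18 of the mitosis genes, against 15.6% of all probe sets. The differences ran from 0.21 to 2.74 among replication genes and from 0.71 to 3.07 among mitosis genes.

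**Figure D2:**
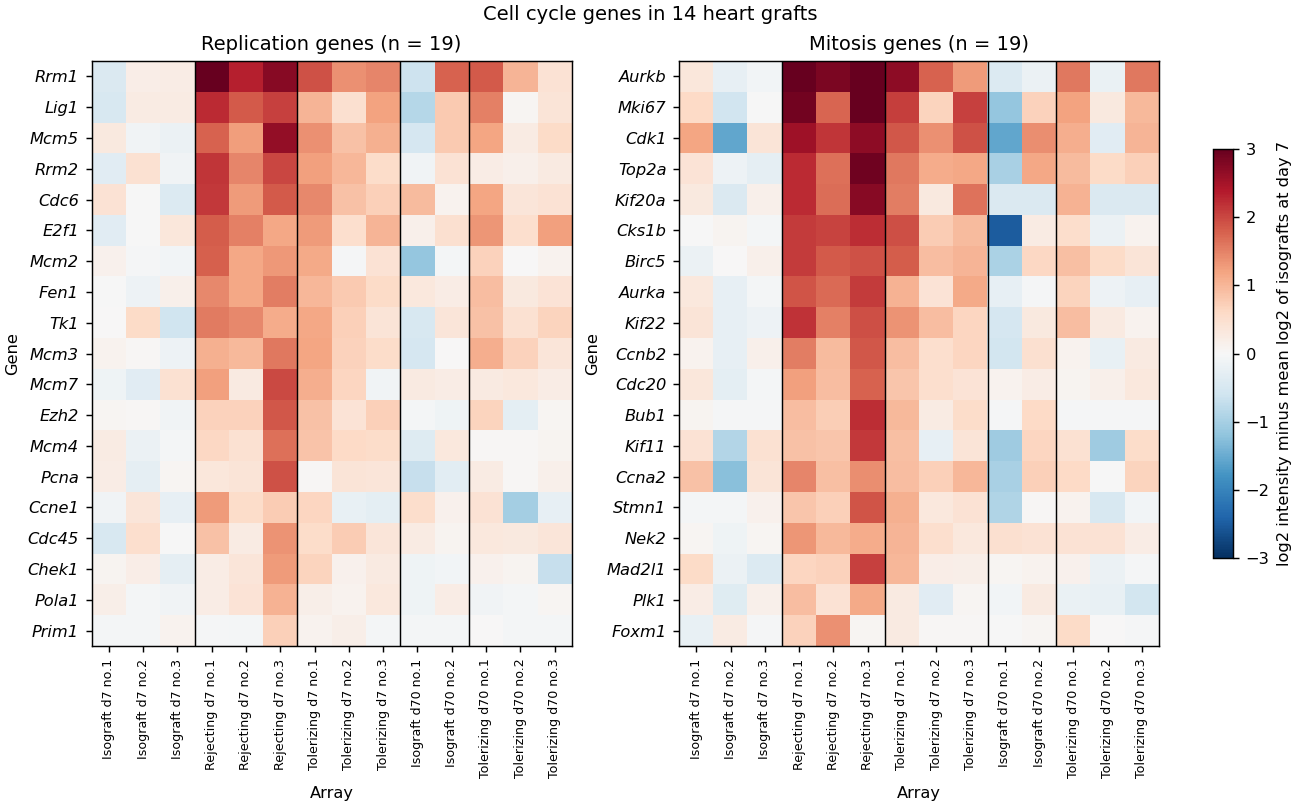
Log2 intensity of the 38 tested genes (rows, replication left, mitosis right) on the 14 arrays (columns), minus the mean of the 3 isografts at day 7, with colour limits at 3 in either direction. The 3 rejecting columns are the darkest red in both panels, the tolerizing columns at day 7 are paler, and isograft d70 no.1 is the bluest column of the mitosis panel.

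Both subunit genes of ribonucleotide reductase, the enzyme that makes deoxynucleotides, rose. Rrm1 read 12.6, 19.4 and 19.7 in isografts No.1 to No.3, 149.0, 84.8 and 112.7 in rejecting allografts and 63.3, 43.7 and 46.7 in tolerizing allografts. The groups did not overlap, and rejecting exceeded isografts by 2.74 ± 0.52 (SE) on the log2 scale, 6.66-fold (adjusted p = 0.00313). Rrm2 read 17.8, 30.6 and 20.8 in isografts, 99.2, 62.5 and 90.7 in rejecting allografts and 52.7, 44.8 and 32.7 in tolerizing allografts, again in 3 separate ranges. It rose 3.67-fold in rejection (log2 1.88 ± 0.31, adjusted p = 0.00123), the smallest adjusted p among the replication genes. Tk1, the thymidine kinase of the salvage pathway, read 91.9, 135.9 and 59.8 in isografts against 267.3, 247.6 and 195.9 in rejecting allografts and rose 2.59-fold (adjusted p = 0.00778).

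Genes of origin licensing and of the replicative helicase moved unevenly. Mcm5 read 87.6, 66.6 and 63.7 in isografts and 245.0, 171.4 and 445.6 in rejecting allografts, and rose 3.69-fold (log2 1.88 ± 0.38, adjusted p = 0.00414). Mcm3 read 106.3, 101.0 and 88.7 against 204.9, 194.2 and 295.0 and rose 2.31-fold (adjusted p = 0.00452). Mcm2 read 52.0, 46.0 and 44.8 against 164.1, 105.6 and 117.8 and rose 2.67-fold (adjusted p = 0.0131, and 0.0576 without rejecting No.1). In these 3 genes the groups lay apart, and rejecting No.3 was the highest array only for Mcm3 and Mcm5. Mcm4 (57.6 in the middle isograft, 91.9 in the middle rejecting heart) missed the threshold at an adjusted p of 0.0503, and all its rejecting arrays lay above all its isografts. Mcm7 read 39.7, 34.8 and 60.5 against 102.7, 53.1 and 173.6, so the ranges overlapped, and its adjusted p was 0.0616 (0.0159 without rejecting No.2). Mcm6 read 13.8 or less on every array. Cdc6, the licensing factor, read 34.6, 25.6 and 19.3 in isografts against 112.5, 62.0 and 92.5 and rose 3.35-fold (adjusted p = 0.00465). Cdc45 read 35.1, 69.5 and 48.9 against 90.6, 58.0 and 124.5, overlapped, and was not called (adjusted p = 0.083).

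Enzymes that join and trim the lagging strand rose, and the genes of the polymerase itself did not pass the test. Lig1, the ligase that seals the fragments of the lagging strand, read 18.9, 31.4 and 31.6 in isografts and 124.8, 94.6 and 109.7 in rejecting allografts, 4.10-fold higher (log2 2.04 ± 0.45, adjusted p = 0.00674). Fen1, the nuclease that removes their 5′ flaps, read 28.4, 25.4 and 31.8 against 77.3, 63.1 and 81.8, 2.59-fold higher (adjusted p = 0.0026). Pcna, the sliding clamp, behaved differently between arrays. It read 236.0, 167.0 and 210.9 in isografts and 256.7, 264.1 and 764.8 in rejecting allografts, so rejecting No.3 stood far above the other two, which lay just above the isografts (adjusted p = 0.0871). Pola1, the catalytic subunit of the priming polymerase, read 34.4, 29.2 and 28.2 against 35.4, 40.8 and 62.5 (adjusted p = 0.182). Prim1, the primase subunit, stayed near the floor at 18.7 or less on every array.

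Among the regulators of S phase, E2f1, an activator of replication genes, read 7.4, 13.8 and 17.4 in isografts and 48.6, 39.3 and 31.1 in rejecting allografts. It rose 2.82-fold on values held at the floor (log2 1.497 ± 0.32, adjusted p = 0.00529). Ezh2, the methyltransferase of a Polycomb complex and a gene that E2F factors activate, read 46.7, 45.9 and 41.3 against 72.4, 71.8 and 161.2 and rose 2.12-fold (adjusted p = 0.0369). Its call held in 13 of 24 alternatives, and without rejecting No.3 or any 1 of the 3 isografts it was lost. It was also lost when the arrays were rescaled by quantiles or by medians (adjusted p = 0.051 and 0.059). Ccne1, the cyclin E that partners Cdk2, read 61.5, 85.3 and 55.7 against 161.7, 96.9 and 113.1 without overlap, and its adjusted p was 0.133. Chek1, the kinase that holds cells with stalled forks, read 29.5, 32.0 and 23.2 against 32.4, 35.8 and 67.6 (adjusted p = 0.253). Ccne2 read 7.7 or less on every array, and Hells exceeded the floor only in rejecting No.1 and No.3, at 13.3 and 36.1.

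The chromosomal passenger complex, which corrects the attachment of chromosomes to the spindle, held the largest difference of the set. Aurkb, its kinase, read 18.4, 12.3 and 13.7 in isografts, 128.4, 103.4 and 137.3 in rejecting allografts and 93.8, 49.4 and 35.2 in tolerizing allografts. The 3 ranges did not overlap, and rejecting exceeded isografts 8.38-fold (log2 3.07 ± 0.47, adjusted p = 0.000845). Birc5, or survivin, of the same complex, read 20.9, 23.6 and 26.3 against 100.5, 84.2 and 87.9 in rejection and rose 3.86-fold (log2 1.95 ± 0.37, adjusted p = 0.0032). Aurka, the kinase of the spindle poles, read 16.2, 8.8 and 12.5 against 48.6, 42.3 and 55.7 and rose 3.72-fold (adjusted p = 0.00104). Aurka lay under the floor in isograft No.2 and was held at the floor there, and the call of Aurka was lost with the floor at the 50th percentile of all values (log2 0.24, adjusted p = 0.0905).

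The genes of the mitotic trigger rose too. Cdk1 read 74.0, 8.8 and 42.7 in isografts and 188.7, 145.1 and 208.1 in rejecting allografts. The isografts spread widely, and the 5.47-fold rise (log2 2.45 ± 0.73) had an adjusted p of 0.0316, which leaving out 1 array raised past the threshold in 5 of the 6 possible ways. Ccnb2, its cyclin, read 185.9, 144.4 and 191.3 against 502.0, 331.7 and 626.8 and rose 2.73-fold (log2 1.45 ± 0.28, adjusted p = 0.0034). Cks1b, a small partner of the cyclin-dependent kinases, read 61.8, 65.8 and 59.6 against 265.5, 255.1 and 288.5 and rose 4.32-fold (adjusted p = 0.0116). Its replicates at day 7 agreed closely in both groups. Ccna2, the cyclin of S phase and early mitosis, read 173.4, 39.4 and 123.4 against 260.9, 176.1 and 249.7, and the low isograft No.2 widened its spread (log2 1.26 ± 0.49, adjusted p = 0.0989, and 0.0444 without isograft No.1). Foxm1, a transcription factor of mitosis genes, was the mitosis gene whose ranges overlapped, at 130.5, 179.4 and 148.6 against 244.7, 393.3 and 157.2 (adjusted p = 0.107).

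Genes of exit from mitosis and of its checkpoint followed. Cdc20, the activator of the ubiquitin ligase that starts anaphase, read 103.2, 66.2 and 78.6 in isografts against 189.6, 155.3 and 276.7 and rose 2.48-fold (log2 1.31 ± 0.24, adjusted p = 0.00217). Bub1, a checkpoint kinase, read 12.1, 5.8 and 2.5 against 21.6, 18.8 and 53.0 and rose 2.45-fold on values held at the floor (adjusted p = 0.0175). Its call was lost without isograft No.2 or No.3. Mad2l1, another checkpoint protein, read 89.1, 52.6 and 45.0 against 92.3, 95.6 and 246.3, so isograft No.1 nearly reached the lowest rejecting heart (log2 1.12 ± 0.38, adjusted p = 0.0576). It passed without isograft No.1 or rejecting No.1 (adjusted p = 0.039 and 0.0451). Plk1, the Polo-like kinase, read 78.0, 52.7 and 74.4 against 128.4, 90.4 and 147.9 and was 1.78-fold higher (adjusted p = 0.0416), a call that held in 1 of the 6 fits that left out an array. Nek2, a kinase of the centrosome, read 38.6, 33.9 and 38.2 against 91.5, 72.5 and 79.8 and rose 2.20-fold (adjusted p = 0.00489).

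Motor and chromosome genes were called higher apart from Kif11. Kif22, a chromosome-binding kinesin, read 121.2, 77.6 and 83.4 in isografts and 411.5, 264.0 and 350.9 in rejecting allografts, and rose 3.65-fold (log2 1.87 ± 0.30, adjusted p = 0.00107). Kif20a, a kinesin of cytokinesis, read 18.2, 5.7 and 16.7 against 71.0, 47.4 and 99.7 and rose 4.65-fold (adjusted p = 0.00485). Kif11, the motor that parts the spindle poles, read 30.9, 12.5 and 31.7 against 42.6, 40.8 and 100.7 (log2 1.28 ± 0.58, adjusted p = 0.164). Top2a, the enzyme that untangles chromosomes, read 28.5, 19.3 and 17.9 against 100.5, 67.5 and 160.9 and rose 4.80-fold (adjusted p = 0.00465). Mki67, which encodes the proliferation antigen Ki-67, read 37.3, 16.5 and 24.3 against 184.0, 83.3 and 246.3 and rose 6.32-fold (log2 2.66 ± 0.56, adjusted p = 0.00496). Stmn1, a protein that destabilises microtubules and is also made outside mitosis, read 145.7, 144.9 and 165.9 against 270.7, 247.9 and 565.0 and rose 2.21-fold (adjusted p = 0.0256). The call of Stmn1 was lost without rejecting No.3 and without any 1 of the isografts.

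**Figure D3:**
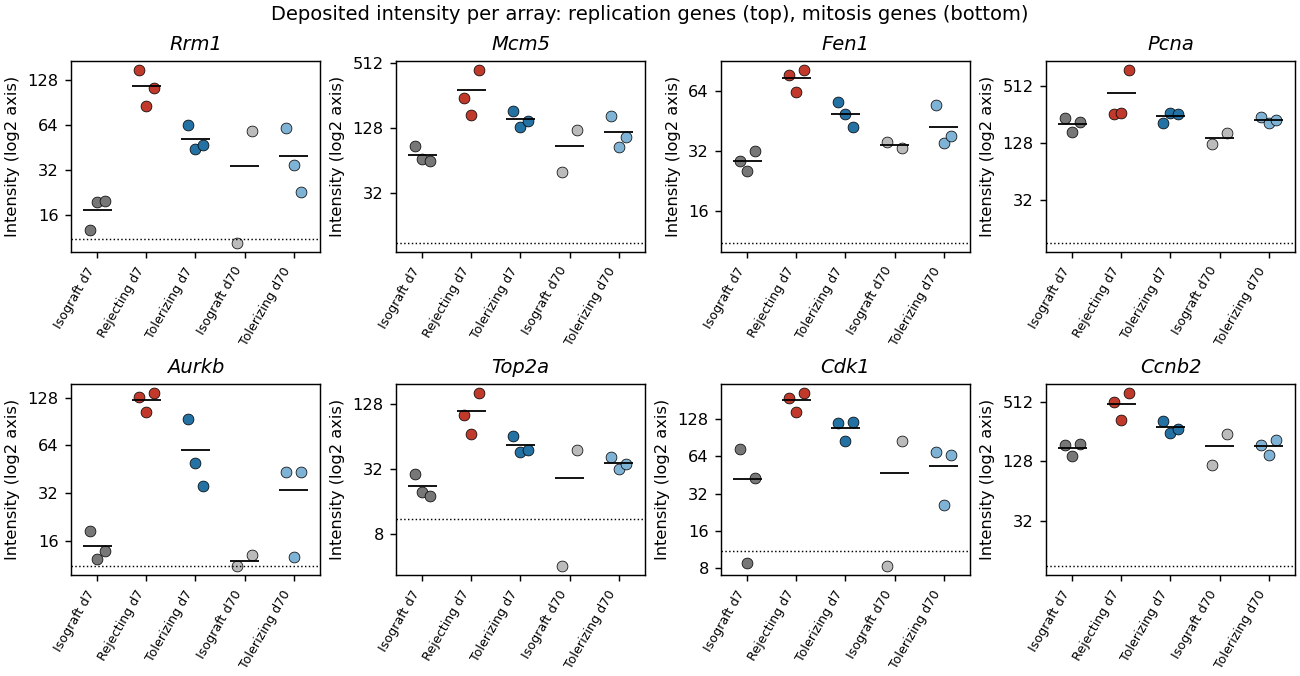
Deposited intensity (log2 axis) of 4 replication genes (top) and 4 mitosis genes (bottom) in the 5 groups, 1 point per array, with the group mean as a bar and the floor of 11 as a dotted line. For Rrm1 and Aurkb the 3 rejecting points lie above all others, whereas for Pcna 1 rejecting point at 764.8 stands apart from the other two.

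The arrays of a group did not carry the same level. Rejecting No.3 was the highest of its group for 11 of 19 replication genes and 14 of 19 mitosis genes, and rejecting No.2 was the lowest for 14 and 17. The median over the replication genes, against the isograft mean at day 7, was 1.29 in rejecting No.1, 0.98 in No.2 and 1.58 in No.3. For the mitosis genes it was 1.54, 1.38 and 2.05. The arrays fall into 2 runs of accession numbers, and rejecting No.3, isograft No.3 and tolerizing No.3 belong to the first. In that run the rejecting and isograft medians were 1.58 and -0.08 for replication genes and 2.05 and -0.02 for mitosis genes, so the difference was present within it, with 1 array a group and no test. In the second run alone 8 replication and 9 mitosis genes were higher, where 1665 of all 10395 probe sets were called in either direction. With the run as a block 12 and 15 genes were higher, where 2088 of all probe sets were called.

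Markers of other cells moved with the same comparison. Of 9 tested T cell markers 8 were higher in rejecting allografts, as were 6 of 8 markers of macrophages and monocytes. So were 4 of 4 markers shared by leukocytes, 2 of 2 tested NK cell markers and 2 of 4 neutrophil markers. Another NK cell marker, Ncr1, lay under the floor on every array and was not tested. Of the B cell markers 0 of 3 were called. All 7 tested cardiomyocyte markers were lower, as were 3 of 5 endothelial markers and 1 of 5 fibroblast markers. The summed intensity of the T cell markers was 135.2 to 455.4 in isografts and 673.8, 1177 and 2840 in rejecting No.1 to No.3. Of these 9 markers only Cd2 was at or under the floor in all isografts at day 7. Cd3e, Cd3g and Cd3d read 54.2, 24.6 and 24.8 in isograft No.3. The summed cardiomyocyte markers were 26020 to 38980 in isografts and 3447, 4867 and 16470 in rejecting allografts. Rejecting No.3, highest for most of the cell cycle genes, was thus highest of its group for both sums. No.2, lowest for most of them, was in the middle for both. No.3 was also highest for the sums of shared leukocyte and NK cell markers. It was lowest for those of macrophages and monocytes (5893, 5943 and 5332 in No.1 to No.3) and of neutrophils (1970, 984.7 and 663.4). The B cell, erythroid, endothelial and fibroblast sums were lowest in No.3 too. The beta-actin probe sets, whose 3' over 5' intensity reflects the state of the RNA, gave a ratio of 1.26 to 1.61 in rejecting allografts and 1.52 to 1.98 in isografts. The part of these differences in the result was not tested, except that with the actin ratio as a covariate 10 replication and 11 mitosis genes were called. That setting called 1452 of all 10395 probe sets in either direction, against 1842 without it.

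In tolerizing allografts at day 7 most of these genes had higher means than in isografts, and none passed the test. By limma over all probe sets 0 of 19 replication genes and 0 of 19 mitosis genes were called, against 1.69% of all probe sets, with medians of 0.67 and 0.87 (all probe sets -0.02). At an unadjusted p under 0.05 the counts were 9 and 12, against 13.0% of all probe sets. All 3 tolerizing arrays lay above all 3 isografts for 10 replication and 13 mitosis genes, against 9.75% of all probe sets. This comparison and the former share the same isografts.

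Aurkb came nearest to a call (log2 1.91 ± 0.47, 3.75-fold, adjusted p = 0.0648). It passed at 0.0486 with the replicate number as a block and at 0.0459 with the day 7 groups alone. Rrm1 (log2 1.58 ± 0.52, adjusted p = 0.188) passed at 0.0495 with the day 7 groups alone. Cks1b read 238.0, 106.1 and 121.2 against 61.8, 65.8 and 59.6 in isografts, so tolerizing No.1 was near the rejecting level and the other two were not (adjusted p = 0.329). Mki67 read 104.1, 39.1 and 101.3, with No.2 just above the highest isograft at 37.3. At the other end, Plk1 read 81.5, 53.6 and 69.6, within the range of its isografts, and Ccne1 read 103.4, 56.6 and 53.9 around its isografts.

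Tolerizing No.1 was the highest of its group for 14 replication and 15 mitosis genes. Its medians against isografts were 1.02 and 1.04, those of No.2 were 0.60 and 0.51, and those of No.3 were 0.54 and 0.65. The T cell markers summed to 1004 in No.1, 480.7 in No.2 and 603.9 in No.3, and the cardiomyocyte markers to 17230, 25390 and 20510. Of the T cell markers 2 of 9 were called higher than in isografts, of the cardiomyocyte markers 0 of 7 lower. The ratio of beta-actin was 1.09 to 1.37, below every isograft of day 7. With that ratio as a covariate limma called 8 of all probe sets in this comparison in place of 176, and the calls of Pttg1 and Cdkn1c, described further on, were lost (adjusted p = 0.0936 and 0.463). The part of the marker differences in the result was not tested.

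Rejecting against tolerizing allografts compares hearts of the same donor strain at day 7, without and with the antibody. All 38 genes had a higher mean in rejection, and limma called 0 of 19 in either class, against 1.41% of all probe sets. At an unadjusted p under 0.05 there were 6 replication and 8 mitosis genes, against 15.1% of all probe sets. The median differences were 0.62 and 0.75, and that of all probe sets was 0.06. Rejecting arrays lay wholly above tolerizing arrays for 5 replication and 11 mitosis genes, against 8.89% of all probe sets. Those 5 were Fen1, Lig1, Mcm2, Rrm1 and Rrm2.

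Among the 38 tested genes Aurka had the smallest adjusted p. It read 26.9, 17.4 and 28.9 in tolerizing allografts and 48.6, 42.3 and 55.7 in rejecting ones (log2 1.03 ± 0.30, adjusted p = 0.108). It passed when arrays were weighted (adjusted p = 0.0222), a setting that called 1512 of all 10395 probe sets in place of 147. Lig1 read 53.7, 37.2 and 61.8 in tolerizing against 124.8, 94.6 and 109.7 in rejecting allografts (log2 1.13 ± 0.45, adjusted p = 0.245). Aurkb and Rrm1 differed by 1.16 ± 0.47 and 1.15 ± 0.52, with adjusted p of 0.251 and 0.319. With the floor raised to the median of all values, Aurkb, Lig1 and Rrm1 passed, at adjusted p of 0.0239, 0.0195 and 0.0157. That setting called 235 of 7212 probe sets. Mcm3 and Mcm4 overlapped between the groups, as did Mki67, whose tolerizing No.1 and No.3 exceeded rejecting No.2 at 83.3.

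**Figure D4:**
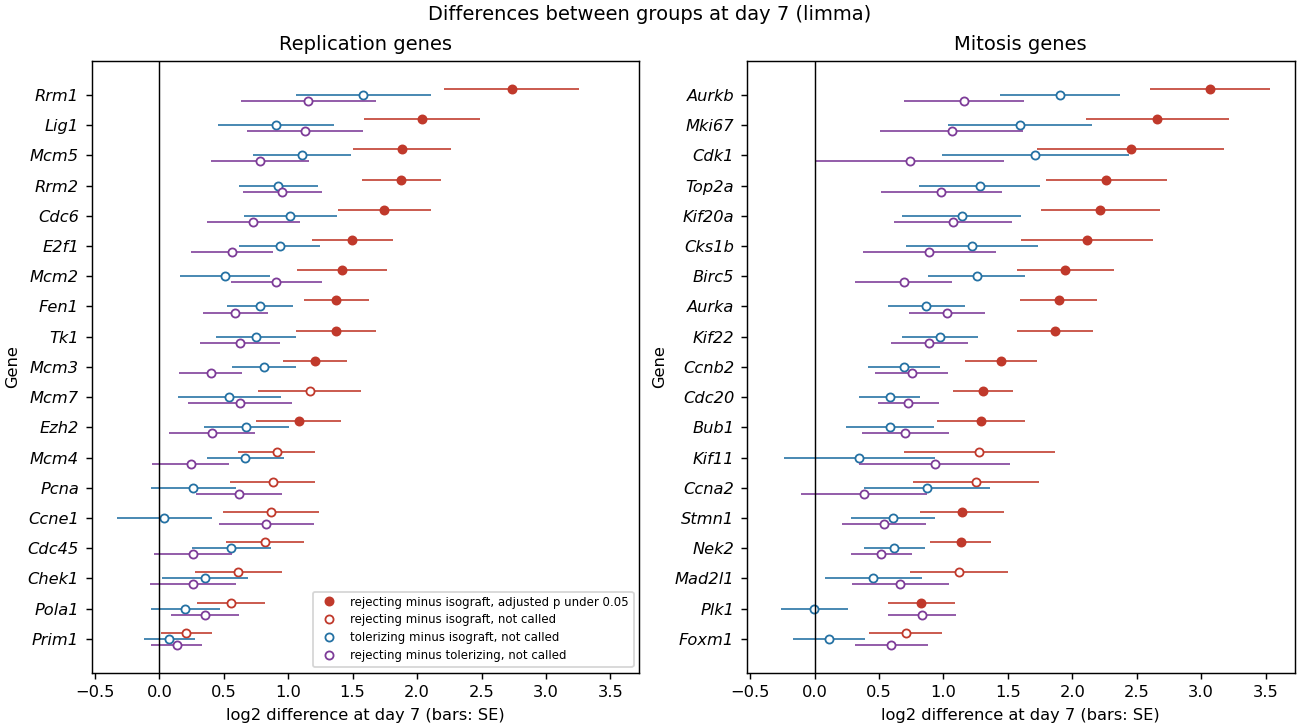
Log2 differences between groups at day 7 (x axis) for the 38 tested genes (y axis), with 1 SE either side. Rejecting minus isograft (red) lies to the right for every gene and is filled where the adjusted p is under 0.05 (11 replication and 15 mitosis genes), while tolerizing minus isograft (blue) and rejecting minus tolerizing (purple) have no filled point.

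At day 70 tolerizing allografts were compared with 2 isografts. Limma called 0 of 19 replication and 0 of 19 mitosis genes, against 3.2% of all probe sets called in either direction, with 2 and 2 at an unadjusted p under 0.05 (15.4% of all probe sets). The medians were 0.24 and 0.28, and -0.090 for all probe sets. The mitosis median was -0.090 without isograft No.1 and 0.74 without isograft No.2. All tolerizing arrays lay above both isografts for 6 replication genes (Cdc45, E2f1, Mcm2, Mcm3, Pcna and Tk1) and 0 mitosis genes, against 12.6% of all probe sets. Plk1 lay below both isografts on every tolerizing array, as did 22% of all probe sets.

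The isografts of day 70 disagreed with each other. Isograft No.1 was the lower one for 18 of 19 mitosis genes and 13 of 19 replication genes, with medians of -0.49 and -0.12, against 0.30 and 0.22 in No.2. Top2a read 4.0 and 48.1 in them, Cdk1 8.3 and 85.7, and Cks1b 10.2 and 73.7. Rrm1 read 10.3 and 57.9, the former under the floor and the latter near the tolerizing level of day 7. These isografts differ in accession run too, and their macrophage and monocyte markers summed to 910.7 in No.1 and 2277 in No.2, while their T cell markers summed to 184.1 and 188.5. With a pair of hearts, neither can be called the typical one.

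In tolerizing allografts of day 70, Aurkb read 43.5, 12.6 and 43.4 against 11 and 12.9 in the isografts (log2 1.27 ± 0.52, adjusted p = 0.25). Without tolerizing No.2 it was called (log2 1.87, adjusted p = 0.0358). Cks1b read 89.8, 55.3 and 66.9, a difference of 1.28 ± 0.57 (adjusted p = 0.302) that rested on isograft No.1. It was 2.65 without isograft No.2 and -0.090 without isograft No.1, with 1 isograft left in each fit. Mki67 read 57.0, 30.3 and 48.0 against 6.3 and 39.7 (log2 1.06 ± 0.62, adjusted p = 0.458). Mcm3 read 208.2, 158.1 and 125.6 against 69.4 and 99.5, and its adjusted p of 0.0879 was the smallest among the 38 tested genes. Tolerizing No.1 was again the highest of its group, for 14 genes of each class, and its T cell markers summed to 990.9 against 425.8 and 445.9 in No.2 and No.3.

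From day 7 to day 70 the means of tolerizing allografts were lower for 18 of 19 genes in each class, and limma called 0 of 19 in both (1 and 4 at an unadjusted p under 0.05, against 6.21% of all probe sets). Of all probe sets 0.0385% were called. The medians were -0.26 and -0.63, and -0.04 for all probe sets. All arrays of day 70 lay below all of day 7 for 4 replication genes (Chek1, Mcm4, Pola1 and Rrm2) and 10 mitosis genes, against 8.61% of all probe sets. Ccnb2 read 325.9, 246.4 and 271.6 at day 7 and 185.7, 146.9 and 209.3 at day 70. Kif20a read 43.0, 18.2 and 45.9, then 31.0, 5.3 and 5.8, a difference of -1.09 with an adjusted p of 0.775. Cdk1 read 118.3, 84.9 and 121.9, then 69.0, 25.7 and 66.1 (log2 -1.13, adjusted p = 0.932).

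Between the days, isografts had median differences of 0.05 for replication and -0.10 for mitosis genes, 0 calls in each class and 0 at an unadjusted p under 0.05 by limma (5.38% of all probe sets). With all arrays, 0.0% of all probe sets were called. Leaving out isograft No.2 of day 70 left 1 isograft of that day, in which Cks1b read 10.2, under the floor. The difference of Cks1b was then -2.50 on the log2 scale. The difference of tolerizing minus isograft at day 70 minus that at day 7 had medians of -0.42 and -0.56, and limma called 0 in each class, with 0 at an unadjusted p under 0.05 against 3.93% of all probe sets. Hence no change of the tolerizing difference with time was shown for any of the 38 genes.

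**Figure D5:**
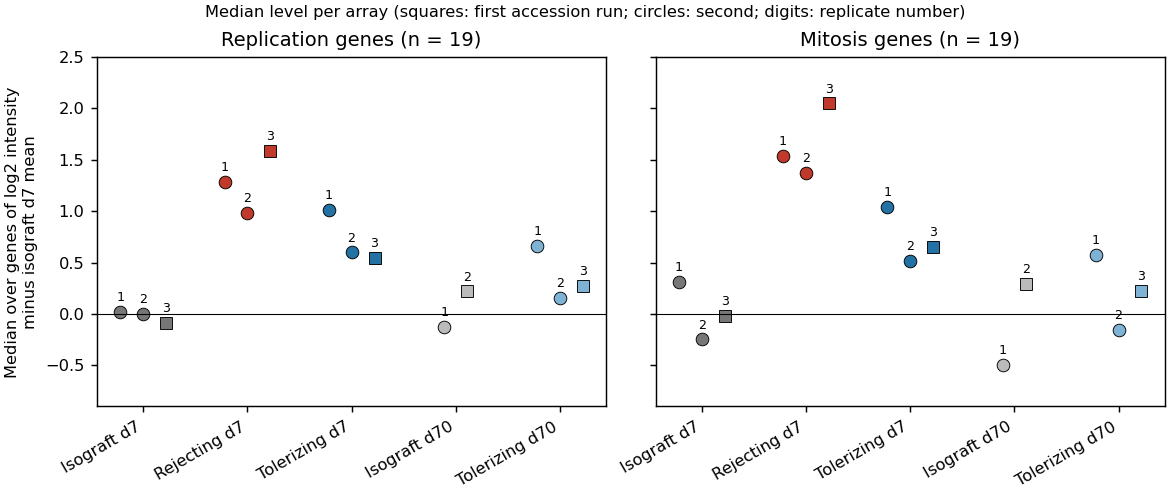
Median over the 19 replication genes (left) and 19 mitosis genes (right) of log2 intensity minus the isograft mean of day 7 (y axis), 1 point per array, with the 5 groups on the x axis. Squares are the first accession run and circles the second. Rejecting allografts lie from 0.98 to 2.05, tolerizing allografts of day 7 from 0.51 to 1.04, and isograft d70 no.1 is the lowest point for mitosis genes at -0.49.

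Other genes of the cycle, listed by function, were counted in the same fit, in which 8.54% of all probe sets were higher and 9.18% lower in rejecting allografts. Among 32 other replication genes 9 were higher in rejecting allografts than in isografts and 0 lower (median 0.60). Those with the smallest adjusted p were Asf1b and Chaf1b, histone chaperones of new chromatin, Dnmt1, which copies DNA methylation, and Cdc7, the kinase that fires origins, with log2 differences of 2.06, 2.18, 1.16 and 1.504. Among 29 other mitosis genes 14 were higher and 1 lower (median 1.04), and Ect2, which steers cytokinesis, Ncaph, a condensin subunit, and the chromatin protein Hmgb2 rose by 1.91, 1.36 and 2.32. Asf1b read 5.4, 4.0 and 22.2 in isografts and 56.5, 34.0 and 100.4 in rejecting allografts, so isograft No.3 alone was above the floor. In tolerizing allografts at day 7 both lists had 0 genes higher by limma, and 1 mitosis gene, Pttg1, was lower. At an unadjusted p under 0.05 stood 4 of the 32 replication and 8 of the 29 mitosis genes, against 12.97% of all probe sets.

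The exception was Pttg1, or securin, a regulator of the parting of sister chromatids at anaphase. It read 582.3, 549.9 and 435.3 in isografts of day 7 and 679.5 and 634.7 in those of day 70. Rejecting allografts read 213.9, 178.1 and 218.5, tolerizing allografts of day 7 273.2, 196.1 and 195.9, and those of day 70 207.9, 167.5 and 203.1. All 9 allografts were below all 5 isografts, by -1.36, -1.24 and -1.77 on the log2 scale in the 3 comparisons (adjusted p = 0.000436, 0.0027 and 0.000292). The call in tolerizing allografts of day 7 was lost in the second accession run alone, with only the groups compared and with the actin ratio as a covariate (adjusted p = 0.0717, 0.0603 and 0.0936). The donor strain changes along with the graft type in each of these, and the 2 cannot be told apart. Its probe set is of a kind that may share sequence with other transcripts.

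A list of G1 regulators and cycle inhibitors, which also held Cdc25c, a gene of entry into mitosis, split. Of 29 tested, 8 were higher and 1 lower in rejecting allografts (median 0.34), where 8.54% and 9.18% of all probe sets were. Btg1, an antiproliferative gene, read 118.3, 105.5 and 188.8 in isografts and 384.3, 474.0 and 423.2 in rejecting allografts (log2 1.68 ± 0.22, adjusted p = 0.000383). Cdkn1b, the p27 inhibitor of cyclin-dependent kinases, also rose, by 1.00 (adjusted p = 0.00914). It read 7.2, 11.9 and 10.9 in isografts, around the floor of 11, and 27.7, 20.0 and 20.7 in rejecting allografts. Its call was lost with the floor at the 10th percentile and in the second accession run alone (adjusted p = 0.0655 and 0.0507). Cdc25c, the phosphatase that activates Cdk1, rose by 1.497 (adjusted p = 0.0017). Cdkn1c, the p57 inhibitor, fell by 2.30 in rejecting allografts, from 66.7, 103.6 and 68.1 to 22.2, 16.2 and 9.5 (adjusted p = 0.000876). It read 25.1, 27.5 and 18.8 in tolerizing allografts of day 7 and fell by 1.73 there (adjusted p = 0.0244), a call that held in 1 of the 6 fits without 1 array, the one without tolerizing No.2. At day 70 it read 86.5 and 43.1 in isografts and 20.6, 29.5 and 22.2 in tolerizing allografts, without overlap and without a call. Of all probe sets 22% likewise lay below both isografts on every tolerizing array of day 70. Thus inhibitors of the cycle were called in both directions in the same hearts.

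A gene read by several probe sets did not always give the same answer. For Mki67 the other probe set read 58.2, 106.5 and 64.9 in isografts and 68.9, 62.4 and 51.9 in rejecting allografts (log2 -0.28, adjusted p = 0.556), and ranking by mean log2 would have picked it. The second probe sets of E2f1, Mcm5, Tk1, Lig1 and Stmn1 were dim or not called either, and those of Mcm5 and Lig1 pointed lower (log2 -0.31 and -0.76). The second probe sets of Mcm3 and Kif20a were called as the first were, at 1.54 and 1.61 (adjusted p = 0.0352 and 0.000646). Those of Plk1 were not called, at 0.58 and 0.95. Averaged over their probe sets, Lig1, Tk1 and Stmn1 lost their calls in rejecting allografts (adjusted p = 0.111, 0.184 and 0.0759). The probe sets used for E2f1, Kif20a, Mcm3, Kif22, Plk1 and Foxm1 carry suffixes that mark possible shared sequence or relaxed probe selection, so these 6 genes are less certain.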

How the data were processed

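Total RNA of 14 transplanted hearts was measured on 14 arrays. The deposited value table holds signal intensity on a linear scale for 12488 probe sets, and the trimmed mean of 100.06 to 100.07 on every array shows that the authors' deposited intensity was scaled alike. Software and scaling method were not given in the sources used here. Medians were 38.2 to 45.65. Precision is limited by how few arrays there are.

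Left out were 66 control probe sets. Before taking log2, values were raised to a floor of 11, which is the 25th percentile. A probe set was tested if at least 3 arrays exceeded the floor, which 10395 did. They entered 1 limma fit of all 5 groups (version 3.58.1, R version 4.3.3, moderated variances that follow intensity, 9 residual and 4.45 prior degrees of freedom, two-sided). There were 6 comparisons and 1 interaction. The code was tested on simulated data. Of the probe sets, 10833 named 1 gene, 396 several and 1193 none in the platform annotation, with symbols updated by gene ID through RefSeq.

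All 44 genes could be named. Of other lists, the rule names the 4 called genes with the smallest adjusted p per list and comparison. Genes and lists were chosen with earlier results of these data known.

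Replicate numbers were not used in the fit. For tolerizing allografts of day 70 against day 7, deviations of same-numbered arrays correlated at 0.341, 0.253 and 0.268. For rejecting against tolerizing allografts of day 7 the values were 0.224, 0.005 and 0.252. In each of these groups No.3 lies in another accession run than No.1 and No.2. The labels do not state a pairing, and whether the numbers pair the arrays was not tested. Alternatives covered the scaling (quantile, median), the floor, the filter, a pseudocount of 16, other variance models, blocks for replicate number and accession run, the actin ratio, probe set rules and leaving out each array.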

Additional observations from a re-analysis of the deposited data

How the results depend on the processing

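Counts of genes higher in rejecting allografts than isografts at day 7 ran from 8 to 12 for replication and from 9 to 16 for mitosis over the alternatives other than leaving out an array, with 9 mitosis genes in the second accession run alone. Of all 10395 probe sets, these alternatives called from 1153 (only the groups compared) to 2948 (array weights) in either direction. Without 1 array the replication and mitosis counts were 10 to 14 and 11 to 15. Kept under every alternative were Aurkb, Birc5, Ccnb2, Cdc20, Cks1b, Fen1, Kif22, Mcm3, Mcm5, Nek2, Rrm1, Rrm2 and Top2a, and E2f1 was kept under the 23 that tested it, since it was not tested with the floor at the 50th percentile. In tolerizing allografts against isografts at day 7, 1 mitosis gene, Aurkb, was called with the replicate block (0 without it), and 1 replication and 1 mitosis gene with the day 7 groups alone, an alternative chosen after seeing the data. Those settings called 184 and 137 of all 10395 probe sets. The replicate block left 11 and 15 calls in rejecting allografts and changed no other count of calls. In rejecting against tolerizing allografts, 4 replication and 2 mitosis genes were called with the floor at the 50th percentile, where 235 of 7212 probe sets were. With array weights, whose estimate stopped before it converged, 2 mitosis genes were called, as were 1512 of all 10395 probe sets, against 147 without weights. Without 1 array, 0 to 1 genes were called in this comparison. Without 1 array, 0 to 1 mitosis genes were called in tolerizing allografts against isografts at day 70 and in isografts over time.

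Single differences were followed if they were called or, for replication and mitosis genes, reached 1 on the log2 scale in either direction. Among these the sign changed in 6 cases, and smaller differences were not followed singly. Read from the probe set ranked first by mean log2, a rule chosen after seeing the data, Mki67 gave -0.28, -0.50 and -0.36 in rejecting and tolerizing allografts of day 7 and tolerizing allografts of day 70 against isografts. Averaged over its probe sets, Mcm5 gave -0.17 in tolerizing allografts of day 7. Without isograft No.1 of day 70, Cks1b gave -0.090 in tolerizing allografts against isografts and 0.24 in isografts over time. Without No.2 of that group it gave 2.65 and -2.50, and either fit left 1 isograft of day 70. Their second probe sets and that array are described above, and further causes were not tested.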
